A study of Mus musculus with 8 samples.

Results

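The germ cell piRNA and RNA-binding genes described here are Ddx4, Dazl, Mael, Piwil2, Tdrd1, Tdrd9, Mov10l1, Asz1, Tdrkh and Pld6. They were chosen by their symbols, and all 10 were found among the 26586 gene symbols with deposited counts. RNA-Seq had been performed on primordial follicles, the small resting follicles in which an oocyte is enclosed by flat pregranulosa cells, isolated from mouse ovaries at postnatal day 3. The comparison was between 4 samples of the third generation descended from oocytes that received extra mitochondria at fertilisation (mito-supplemented) and 4 control samples, all on the C57Bl/6 x CBA background. Follicles were taken up with fine tips from enzyme-digested ovaries, total RNA was extracted per ovary and libraries were made with the Trio RNA-Seq kit. The labels call the samples biological replicates but do not say whether they came from separate animals or litters, and the codes of control replicates 1 and 2, of control replicates 3 and 4 and of mito-supplemented replicates 1 to 3 share their first part. A figure caption of the study counts mice, with n = 4 in each group, and does not mention litters. The p-values below take each library as separate and therefore measure only the spread between these samples, which may be technical.

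PIWI proteins bind small RNAs, called piRNAs, that silence transposable elements in germ cells, and Tudor domain proteins gather the PIWI proteins in granules beside the mitochondria, where the piRNAs are cut and trimmed. Several proteins of the pathway are anchored in the outer mitochondrial membrane. In mice the pathway is required for spermatogenesis, whereas females that lack Piwil2 are fertile, although oocytes contain piRNAs and the same proteins. Dazl and Ddx4 are RNA-binding proteins used as germ cell markers.

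The genes lie on separate chromosomes of GRCm38, and each is annotated as protein coding in GENCODE M21. Ddx4 is at chr13:112598333-112652475, Dazl at chr17:50279395-50293636, Mael at chr1:166201201-166238747, Piwil2 at chr14:70372477-70429383 and Tdrd1 at chr19:56826209-56870012. Tdrd9 is at chr12:111971559-112068854, Mov10l1 at chr15:88982909-89055152, Asz1 at chr6:18050964-18109061, Tdrkh at chr3:94413273-94434668 and Pld6 at chr11:59783897-59787645. Exons of Tdrkh overlap those of Oaz3 on the opposite strand, and because the strand setting of the counting is not given in the sources used here, reads of these genes cannot be told apart where they overlap. Oaz3, named for this overlap and not by the rule for naming genes, had 0 to 29 counts per library.

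Promoter windows of 300 bases, from 250 bases before to 50 bases after the transcription start, were available from RefSeq (GRCm38.p6) for 9 of the 10 genes, all but Piwil2, and for genes with several starts the start nearest to that of GENCODE was used. They are shown to compare the sequences at the starts of these germ cell genes. The letters CACGTG, an E-box that reads the same on both strands, were in the windows of 6 of the 9 genes, namely Ddx4, Mael, Tdrd1, Tdrd9, Mov10l1 and Pld6. This motif was in 9.87% of the 12318 windows of genes tested and in 7.15% of all 32851 windows. It was chosen after the windows had been read, so the share is a description. Counted from the RefSeq start, the first base of the motif lay 11 bases before it in Tdrd1, 29 in Ddx4 and 33 in Pld6, and Tdrd9 held a pair, 165 and 95 bases before the start. In Mael and Mov10l1 it lay farther away, at 223 and 246 bases. The RefSeq start of Ddx4 is 165 bases inside the GENCODE gene, so the motif of Ddx4 lies after the GENCODE start. The letters GGCGGGA, searched on both strands, were in 2 of the 9 windows (20.3% of windows of genes tested), and CCAAT, searched on both strands, in 7 of 9 (37.7%). The windows with CACGTG closest to the start and the window with the pair are printed on the strand of the gene, with this motif in capitals. They are chr13:112652261-112652560 (minus strand) for Ddx4, chr19:56825959-56826258 (plus) for Tdrd1, chr12:111971309-111971608 (plus) for Tdrd9 and chr11:59787608-59787907 (minus) for Pld6.
Ddx4: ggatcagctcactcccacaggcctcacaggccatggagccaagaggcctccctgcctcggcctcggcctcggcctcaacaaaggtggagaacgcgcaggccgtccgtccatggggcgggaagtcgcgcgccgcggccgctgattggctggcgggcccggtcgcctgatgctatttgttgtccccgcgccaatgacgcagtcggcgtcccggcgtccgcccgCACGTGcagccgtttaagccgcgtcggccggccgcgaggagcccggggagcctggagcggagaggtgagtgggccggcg
Tdrd1: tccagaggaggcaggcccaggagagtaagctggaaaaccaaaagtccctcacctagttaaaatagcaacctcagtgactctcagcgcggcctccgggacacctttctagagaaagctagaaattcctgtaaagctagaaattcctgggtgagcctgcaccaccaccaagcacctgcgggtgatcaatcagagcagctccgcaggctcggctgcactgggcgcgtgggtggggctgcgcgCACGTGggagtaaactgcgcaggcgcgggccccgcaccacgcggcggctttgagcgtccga
Tdrd9: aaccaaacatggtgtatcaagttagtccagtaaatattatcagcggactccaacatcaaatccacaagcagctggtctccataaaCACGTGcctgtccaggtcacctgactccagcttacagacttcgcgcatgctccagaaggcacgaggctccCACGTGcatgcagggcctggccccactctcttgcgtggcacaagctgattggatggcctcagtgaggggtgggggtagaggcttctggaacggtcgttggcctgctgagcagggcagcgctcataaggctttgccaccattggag
Pld6: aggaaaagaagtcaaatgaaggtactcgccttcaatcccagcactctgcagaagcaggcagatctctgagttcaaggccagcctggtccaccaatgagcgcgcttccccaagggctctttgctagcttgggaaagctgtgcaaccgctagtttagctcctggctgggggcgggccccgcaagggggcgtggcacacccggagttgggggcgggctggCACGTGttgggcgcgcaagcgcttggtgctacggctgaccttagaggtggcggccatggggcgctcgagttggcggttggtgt
Among the other genes of the piRNA pathway CACGTG was in 4 of 20 windows, among germ cell RNA-binding genes in 7 of 26, and among oocyte marker genes in 4 of 15. A match of letters does not show that a factor binds there.

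The control libraries held 17658559, 13917412, 18219362 and 10370045 counts (replicates 1 to 4). Those of the mito-supplemented group held 19760763, 13370911, 16116434 and 13276462. In control replicate 4, 75.3% of the counts fell on the rRNA genes, against 20.2% to 45.6% in the other libraries, and 2559876 counts were left for other genes. Levels are given as CPM, counts scaled to a fixed library total, after TMM normalization, which scales libraries to the bulk of genes. The label was compared with markers of the cells a follicle contains. The 20 oocyte markers, of which Nlrp5 was the most abundant, summed to 4902, 377, 243 and 936 CPM in control replicates 1 to 4 and to 391, 279, 1103 and 166 CPM in mito-supplemented replicates 1 to 4. The 17 pregranulosa markers, led by Lgr5, summed to 311, 253, 357 and 744 CPM and to 554, 1130.4, 819 and 1040.4 CPM in the same order. The single markers of this list did not all move together. Lgr5 was at 21.1, 16.6, 9.44 and 82.5 CPM in control and at 126, 268, 128 and 179 CPM in mito-supplemented replicates. Foxl2, named after its values were seen, was at 15.7, 9.43, 12.6 and 33.6 CPM and at 7.62, 14.5, 21.3 and 61.4 CPM. The sum, and a ratio built on it, therefore does not follow each pregranulosa marker. Control replicate 1 stood apart, with a ratio of oocyte to pregranulosa markers of 15.8, against 0.160 to 1.49 in the other 7 libraries.

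Markers of cells outside the follicle were also present. The 11 stroma markers, led by Col3a1, summed to 413, 526, 733 and 2542 CPM in control and to 1100.1, 1449, 2717 and 2810.3 CPM in mito-supplemented libraries. The 9 surface epithelium markers, led by Upk3b, summed to 94.5, 49.3, 33.9 and 371 CPM and to 276, 849, 345 and 652 CPM. The 7 red cell markers listed, led by Slc4a1, reached 4012, 2682 and 4952 CPM in control replicates 2 and 3 and mito-supplemented replicate 1, and at most 79.0 CPM elsewhere. The 8 endothelial markers, led by Kdr, summed to 26.8 to 225 CPM in control and 95.5 to 226 CPM in mito-supplemented libraries. Kdr made up 68.0% of their CPM summed over all libraries, so these ranges mostly follow Kdr. The 6 smooth muscle markers, led by Myh11, summed to 21.2 to 266 CPM in control and 44.3 to 359.8 CPM in mito-supplemented libraries. The 9 leukocyte markers, led by Lyz2 and with C1qb at 0 counts, reached 733 CPM in mito-supplemented replicate 1 and 9.23 to 132 CPM in the others. The part of these cells in the results was not tested, and in such samples fewer oocytes and less RNA per oocyte cannot be told apart.

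Piwil2, the PIWI protein MILI, was at 199, 10.1, 14.5 and 23.3 CPM in control replicates 1 to 4 and at 27.4, 17.3, 23.1 and 19.5 CPM in mito-supplemented replicates 1 to 4. Ddx4, an RNA helicase of germ cell granules, was at 71.3, 8.48, 12.0 and 11.4 CPM in control and at 24.1, 9.83, 20.01 and 7.86 CPM in mito-supplemented replicates. Mov10l1, a helicase that feeds precursor RNAs into the pathway, was at 291, 20.8, 21.1 and 81.9 CPM and at 29.8, 32.1, 53.1 and 30.1 CPM in the same order. For all 3 genes control replicate 1 lay above the other 7 libraries, but the other 3 control libraries were placed differently. Of these, 2 lay below each mito-supplemented library for Piwil2, all 3 lay within the mito-supplemented range for Ddx4, and 2 lay below and 1 above it for Mov10l1.

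Tdrd1, the Tudor protein that binds MILI, was at 701, 35.4, 50.3 and 193 CPM in control and at 74.7, 39.9, 111 and 19.9 CPM in mito-supplemented replicates. Tdrd9, which joins a Tudor domain to a helicase, was at 239.7, 21.3, 9.89 and 53.9 CPM and at 24.2, 20.6, 32.8 and 0.695 CPM. Control replicate 1 was again highest, and the last Tdrd9 value came from 10 counts in mito-supplemented replicate 4, a library that held 433 counts of Mov10l1. Mael, a granule protein, was at 138, 2.54, 5.38 and 21.7 CPM in control and at 23.9, 8.52, 29.3 and 5.01 CPM in mito-supplemented replicates. Dazl, which regulates translation in germ cells, was at 194, 12.2, 5.55 and 21.7 CPM and at 24.7, 10.3, 23.0 and 1.95 CPM. The groups overlapped for Tdrd1, Tdrd9, Mael and Dazl.

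The 3 genes whose proteins sit on mitochondria had the lowest levels per kilobase. Asz1, a scaffold of the granules, was at 25.9, 0.793, 1.43 and 7.90 CPM in control and at 6.55, 0.554, 5.26 and 2.22 CPM in mito-supplemented replicates. Tdrkh, which takes part in trimming of piRNAs, had 411, 3, 12 and 1 counts in control and 49, 35, 91 and 107 counts in mito-supplemented replicates, or 16.9, 0.238, 0.686 and 0.197 CPM and 2.38, 2.42, 4.13 and 7.44 CPM. Thus each mito-supplemented library lay between control replicate 1 and the other 3 control libraries. Pld6, the nuclease known as zucchini in flies, had 52, 14, 11 and 1 counts and 4, 7, 48 and 0 counts, and was the gene that did not pass the expression filter. Its 0 counts in mito-supplemented replicate 4 allow up to 0.226 CPM of the library total, a limit for counting error only.

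**Figure D1:**
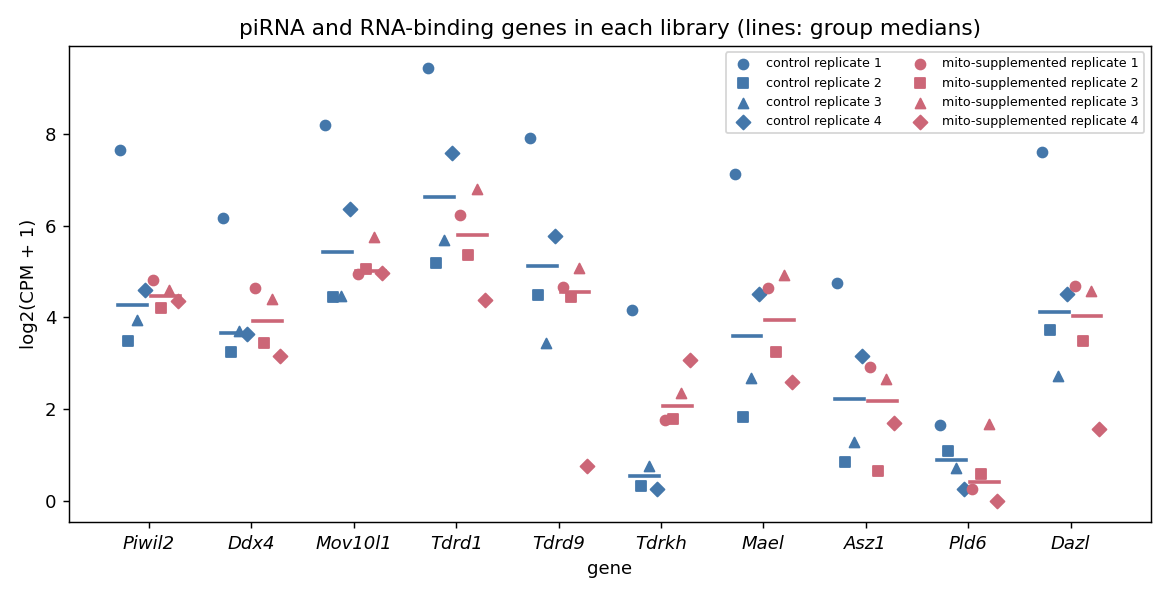
Level of each of the 10 genes in each library, as log2 of CPM plus 1, with control libraries in blue, mito-supplemented libraries in red and the median of each group as a line. Control replicate 1 was the highest library for 9 of the 10 genes, and mito-supplemented replicate 3 for Pld6.

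Control replicate 1 was the highest library for 9 of the 10 genes, the exception being Pld6, whereas it was the highest for 22.5% of the 13873 genes tested. Its level was between 2.27 times (Tdrkh) and 7.83 times (Dazl) that of the next library for these 9 genes. Per kilobase of exon and averaged over the 8 libraries, Tdrd1 had the highest level at 28.1 ± 41.9 CPM per kb (SD, n = 8), followed by Mael at 16.9 ± 26.1, Mov10l1 at 16.7 ± 21.9, Dazl at 9.59 ± 16.8, Tdrd9 at 9.30 ± 14.4 and Piwil2 at 7.90 ± 12.1. Ddx4 at 6.84 ± 7.06, Asz1 at 2.24 ± 2.96, Tdrkh at 0.699 ± 0.915 and Pld6 at 0.493 ± 0.492 CPM per kb (SD, n = 8 each) came last. Within libraries, Mov10l1 was above Dazl and Ddx4 above Asz1 in 8 of 8, Tdrd1 above Mael in 7 and Asz1 above Tdrkh in 6. The order of the other neighbours varied, with Mael above Mov10l1 in 3 of 8 libraries, Dazl above Tdrd9 in 3, Tdrd9 above Piwil2 in 5, Piwil2 above Ddx4 in 4 and Tdrkh above Pld6 in 4. When control replicate 1 was omitted, the means per kilobase were lower and their order differed, with Tdrd1 at 13.8, Mov10l1 at 9.18, Mael at 7.94, Ddx4 at 4.44, Tdrd9 at 4.31, Dazl at 3.72 and Piwil2 at 3.65 CPM per kb. Asz1 was then at 1.25, Tdrkh at 0.407 and Pld6 at 0.390 CPM per kb.

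The question of whether the genes differed with mitochondrial supplementation was put to edgeR's quasi-likelihood test, with a call at an adjusted p value under 0.05 and a 2-fold difference. Of the 10 genes, 9 passed the filter on low counts and 0 were called, as were 0 of the 13873 genes tested (0%). At an unadjusted p value under 0.05 the count was 0 of 9, against 7.71% of all genes tested. The likelihood ratio test also called 0 of the 9 (0.418% of all genes), and limma-voom with sample quality weights called 1, Tdrkh (18.6%). DESeq2 called 0 of the 7 to which it gave an adjusted p value (1.02% of all genes). It gave none to Piwil2 and Tdrkh, as for 216 of the 13873 genes, so these could not be called. All 9 fitted log2 fold changes were below 0, as were 55.1% of those of all genes, with a median of -1.50 against -0.098 over all genes. The 18 oocyte markers tested were below 0 as well, with a median of -1.75 that became 0.12 without control replicate 1. For the 9 genes too the direction was lost without this library, where 6 of the 9 were above 0 and the median was 0.22, against 0.038 over all genes. By limma-voom with sample quality weights all 9 were above 0.

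Tdrd9 averaged 81.2 ± 107 CPM in the 4 control libraries and 19.6 ± 13.6 CPM in the 4 mito-supplemented ones (mean ± SD, as for the genes that follow). Its log2 fold change was -2.05 ± 1.11 (± standard error, edgeR adjusted p = 0.678), and -0.51 without control replicate 1. Tdrd1 averaged 245 ± 312 and 61.5 ± 40.3 CPM (n = 4 and 4), and its log2 fold change of -1.99 ± 0.91 (edgeR adjusted p = 0.655) became -0.57 without control replicate 1. Neither difference exceeded the spread between libraries. Dazl averaged 58.3 ± 90.6 and 14.97 ± 10.8 CPM (n = 4 and 4), and its log2 fold change of -1.96 ± 1.11 (edgeR adjusted p = 0.681) was 0.22 without control replicate 1. Ddx4 averaged 25.8 ± 30.4 and 15.4 ± 7.84 CPM (n = 4 and 4), and its log2 fold change of -0.74 ± 0.73 (edgeR adjusted p = 0.785) was 0.56 without this library. For Dazl and Ddx4 the sign of the difference thus rested on 1 control library.

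Mov10l1, Piwil2, Mael and Asz1 had log2 fold changes of -1.52, -1.50, -1.33 and -1.30, with adjusted p values of 0.667 to 0.756 from edgeR's quasi-likelihood test. Without control replicate 1 these became -0.16, 0.48, 0.80 and 0.17. In exact permutation tests of log2 CPM (two-sided, n = 4 each, smallest possible p = 0.0286), p was 0.229 for Tdrkh, 0.314 for Tdrd1, 0.771 for Ddx4 and 0.943 for Mael. The differences tested, mito-supplemented minus control, were 1.75 for Tdrkh, -1.29 for Tdrd1, -0.29 for Ddx4 and -0.12 for Mael. For Tdrkh the sign was thus opposite to that of its fitted log2 fold change of -0.15. The groups overlapped for each of the 10 genes, while 5.03% of the genes tested had groups without overlap.

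Of the 9 genes tested, Tdrkh had the smallest fitted difference with all libraries and the largest without control replicate 1. With all libraries its log2 fold change was -0.15 ± 1.28 (± standard error, edgeR adjusted p = 0.975). Without control replicate 1, Tdrkh averaged 0.374 ± 0.271 CPM in 3 control libraries and 4.09 ± 2.38 CPM in 4 mito-supplemented ones (mean ± SD), and the log2 fold change was 3.38 ± 0.97 (edgeR unadjusted p = 0.00693, adjusted p = 0.642). The other control libraries held 3, 12 and 1 counts, so this difference rests on few reads. Tdrkh then passed the filter on low counts through the mito-supplemented libraries, where it was high. With all 8 libraries it also passed mainly through them, as control replicate 1 was the only control library with more than 12 counts. Its p values, its call by limma-voom and its rank without control replicate 1 are therefore a description only. By limma-voom with sample quality weights its log2 fold change was 2.48 (adjusted p = 0.0455), and over the other settings the sign varied.

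**Figure D2:**
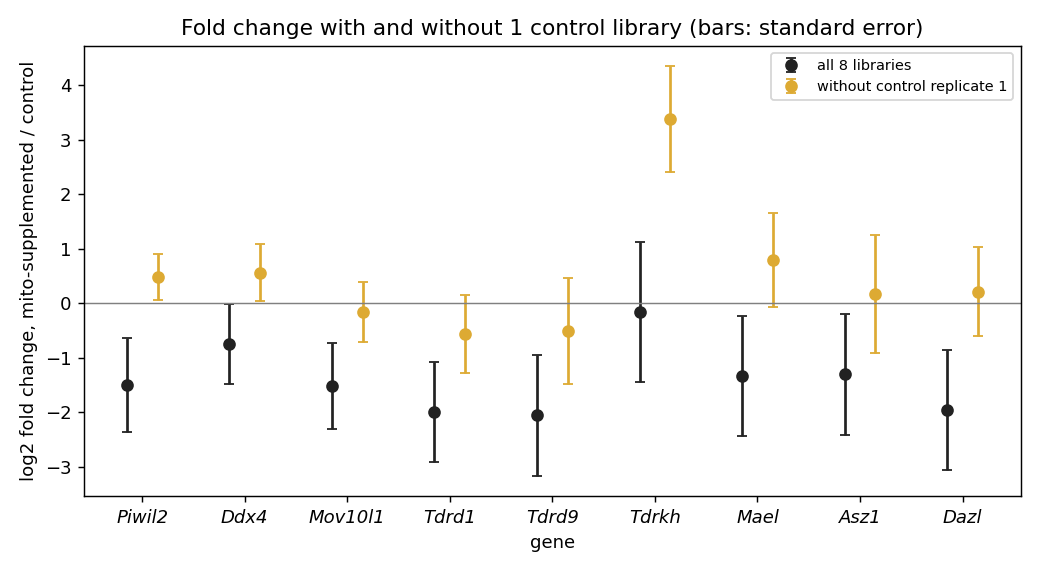
Log2 fold change of mito-supplemented over control samples for the 9 genes tested, from edgeR's quasi-likelihood fit with all 8 libraries (black) and without control replicate 1 (yellow), with the standard error as bars. The values ran from -2.05 to -0.15 with all libraries and from -0.57 to 3.38 without this library.

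The levels were then set against the 20 oocyte markers, which share none of the 10 genes. The summed CPM of the 10 genes ranged from 94.7 in mito-supplemented replicate 4 to 1879 in control replicate 1, a 19.8-fold range, and the oocyte markers ranged 29.5-fold between the same libraries. These ranges were 4.38-fold and 6.64-fold without control replicate 1. Per 1000 counts of the oocyte markers, the 10 genes held 383, 300, 501 and 443 counts in control replicates 1 to 4 and 608, 509, 276 and 569.6 counts in mito-supplemented replicates 1 to 4. The range was 2.20-fold, with or without control replicate 1, which lay inside it. In control replicate 2, Stag3 made up 1813 of the 4751 oocyte marker counts, and without Stag3, a gene picked out after its values were seen, the ratio there was 485. The make-up of the marker sum also differed between mito-supplemented replicates 3 and 1, which had the lowest and highest ratio. Zp2 held 3364 of 24321 marker counts in replicate 3 and 342 of 8066 in replicate 1, and Kit held 1867 and 1540. Zp2 and Kit were likewise picked out after their values were seen. The ratio is thus not a level per oocyte, and the part of this make-up in it was not tested.

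**Figure D3:**
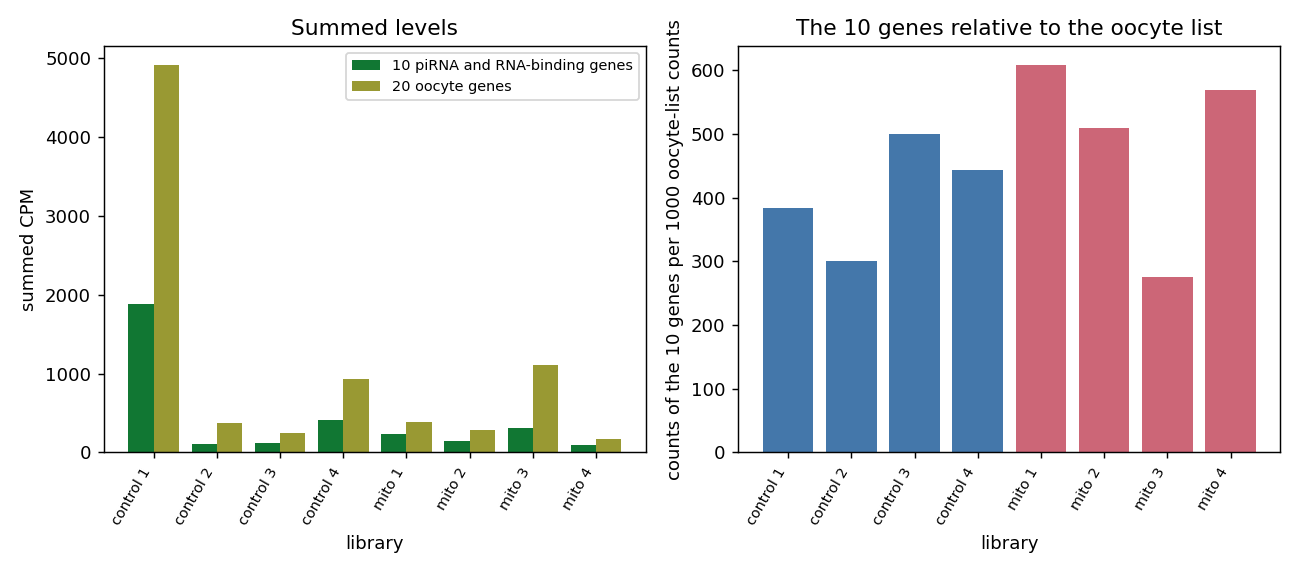
On the left, summed CPM of the 10 piRNA and RNA-binding genes and of the 20 oocyte markers in each library, and on the right, counts of the 10 genes per 1000 counts of the oocyte markers (control in blue, mito-supplemented in red). The summed level of the 10 genes differed 19.8-fold between libraries (4.38-fold without control replicate 1) and the ratio 2.20-fold.

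On this scale, Tdrd1 held 143, 93.9, 207 and 206 counts per 1000 oocyte marker counts in control and 191, 143, 101 and 119.6 in mito-supplemented replicates, and Ddx4 14.6, 22.5, 49.5 and 12.2 and 61.5, 35.2, 18.1 and 47.3. The groups overlapped for both genes (exact permutation tests, two-sided, p = 0.486 for Tdrd1 and 0.257 for Ddx4, n = 4 each). Tdrkh held 3.44, 0.631, 2.83 and 0.211 in control and 6.07, 8.68, 3.74 and 44.8 in mito-supplemented replicates. It was the gene whose groups did not overlap on this scale (exact permutation test, two-sided, p = 0.0286, n = 4 each, the smallest p possible), in 10 such tests. Since Tdrkh passed the filter on low counts mainly through the mito-supplemented libraries, this lack of overlap is a description only. Of all 13873 genes tested, 1.90% had groups without overlap on this scale and 1.85% were higher in each mito-supplemented library. The fit scaled to the oocyte markers gave Tdrkh a log2 fold change of 3.12 ± 1.51 (edgeR adjusted p = 0.696), when the median over all genes was 0.69. Mael held 20.1 ± 9.28 in control and 37.1 ± 16.1 in mito-supplemented libraries (mean ± SD of 4; exact permutation test, two-sided, p = 0.0571). In mito-supplemented replicate 4, which had the fewest oocyte marker counts, Tdrd9 was low at 4.18 while Piwil2 at 118 and Mov10l1 at 181 were the highest of all libraries.

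**Figure D4:**
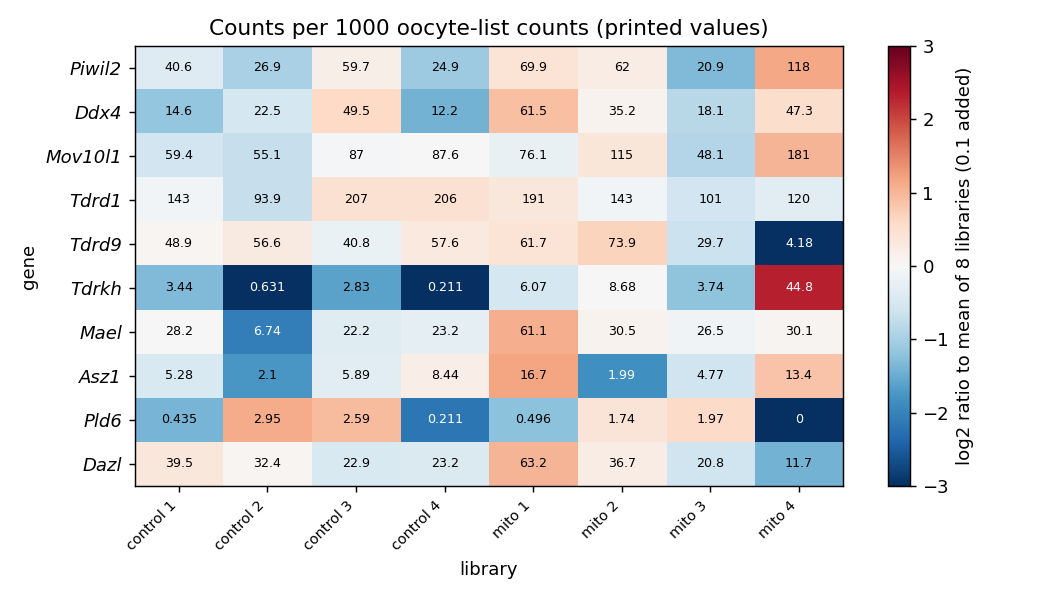
Counts of each gene per 1000 counts of the oocyte markers in each library (printed values), coloured by log2 of the ratio to the mean of the 8 libraries of that gene after adding 0.1. Tdrkh was higher in each mito-supplemented library (3.74 to 44.8) than in each control library (0.211 to 3.44).

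Ddx4 was compared with the 9 other genes across the 8 libraries by correlation of log2 CPM. Mael followed it with r = 0.913 and rho = 0.881 (exact permutation tests over pairings, two-sided, p = 0.00184 and 0.00724, adjusted over 9 relations p = 0.0128 and 0.0461). Piwil2 had r = 0.917 and rho = 0.714 (exact permutation tests, p = 0.00464 and 0.0576, adjusted p = 0.0139 and 0.125). Past an adjusted p value of 0.05 were 5 of the 9 genes by r (Dazl, Mael, Piwil2, Tdrd1 and Asz1) and 3 by rho (Dazl, Mael and Tdrd1). The share of all genes tested that follow Ddx4 to this degree was not measured, so these counts do not set the genes apart from others. Tdrkh (r = 0.598, rho = 0.262; exact permutation p = 0.113 and 0.536, adjusted p = 0.127 and 0.536) and Pld6 (r = 0.542, rho = 0.429; exact permutation p = 0.165 and 0.299, adjusted p = 0.165 and 0.337) had the lowest r of the 9, while by rho Mov10l1 was level with Pld6. The 2 libraries farthest from the median of Ddx4 were control replicate 1 and mito-supplemented replicate 1. Without them r was 0.787 for Mael, 0.502 for Piwil2, 0.626 for Dazl, 0.692 for Tdrd1 and 0.548 for Asz1, and 0 of 9 passed. With 6 libraries over a narrower range of Ddx4 a loss of calls was likely, so no conclusion is drawn from it. Without control replicate 1 alone 0 of 9 passed as well, with r of 0.805 for Mael, 0.690 for Dazl, 0.667 for Piwil2, 0.657 for Asz1 and 0.593 for Tdrd1 in 7 libraries, which does not show that the relation is absent there.

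The genes outside the 10 whose levels across the 8 libraries were most like the average of the 9 tested genes (r of log2 CPM with their mean z-score) were Gtsf1 (0.987), Rab3d (0.985), Uchl1 (0.983), Sycp3 (0.983), Pramef12 (0.982), Sycp1 (0.980), AU015836 (0.980), Alg13 (0.978), Gdpd1 (0.977) and Hccs (0.974). Gtsf1 belongs to the piRNA pathway, Uchl1 and Sycp3 were among the oocyte markers, and Sycp1 is a protein of meiotic chromosomes. In all, 146 of the 13864 other genes tested (1.05%) had r over 0.9. Without control replicate 1, r of these 10 genes ran from 0.886 for Hccs to 0.979 for Pramef12.

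Of 30 other genes of the piRNA pathway, 27 were listed, 17 were tested and 0 were called by edgeR's quasi-likelihood test, by the likelihood ratio test or limma-voom with sample quality weights (0%, 0.418% and 18.6% of all genes tested). DESeq2 called 0 of 15 (1.02%) and gave no adjusted p value to 2, among them Gtsf1. At an unadjusted p value under 0.05 the count was 0 (7.71% of all genes), and 16 of the 17 log2 fold changes were below 0 (55.1%), with a median of -1.20 that became -0.11 without control replicate 1. Control replicate 1 was the highest library for 13 of the 17 (22.5% of all genes). Tex15, which acts in piRNA-directed silencing of transposons, had the highest level of the list per kilobase at 27.5 CPM per kb. It was at 1169, 103, 64.5 and 296 CPM in control and at 160.0, 102, 193 and 27.5 CPM in mito-supplemented replicates, a log2 fold change of -1.76 (edgeR adjusted p = 0.667) that was -0.33 without control replicate 1. Gtsf1 (14.4 CPM per kb), a cofactor of PIWI proteins, was at 107, 3.41, 3.95 and 7.50 CPM and at 13.6, 4.99, 16.7 and 3.20 CPM. Both genes showed the peak in control replicate 1 seen for Piwil2 and Tdrd1, and without it Tex15 was at 14.04 and Gtsf1 at 5.48 CPM per kb.

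Tdrd3 (13.7 CPM per kb, 13.6 without control replicate 1) and Prmt5 (6.83 CPM per kb, 6.30 without it), the methyltransferase that modifies PIWI proteins and acts in many tissues, were less variable, at 57.2 to 154 CPM and 14.7 to 41.8 CPM over the 8 libraries. The log2 fold changes furthest from 0 in the list were those of Stk31 (-2.25), Morc1 (-2.07), Tdrd5 (-2.01) and Tdrd12 (-1.81), with adjusted p values of 0.676 to 0.782 from edgeR. Without control replicate 1 they were -0.075, -1.53, -0.18 and 0.42. Mybl1, known as a transcription factor of piRNA genes in the testis, was at 32.0, 42.3, 21.4 and 29.0 CPM in control and at 15.2, 19.8, 17.8 and 3.34 CPM in mito-supplemented replicates. It was named after its values were seen, as the 1 of 17 genes tested whose groups did not overlap in CPM, against 5.03% of all genes tested (log2 fold change -1.15, edgeR adjusted p = 0.655, and -1.12 without control replicate 1). Dnmt3l had 0 counts in the 8 libraries.

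Of 30 other germ cell RNA-binding genes, all 30 were listed, 25 were tested and 0 were called by edgeR's quasi-likelihood test, with a median log2 fold change of -0.75. Limma-voom with sample quality weights called 5 of the 25, Dazap1, Eif4enif1, Igf2bp2, Tia1 and Ythdc2, a share near the 18.6% of all genes called by this method, and the likelihood ratio test called 0 (0.418%). DESeq2 called 0 of 23 (1.02%) and gave no adjusted p value to 2, among them Btg4. Higher at an unadjusted p value under 0.05 by edgeR were 2, Tia1 and Ddx25 (5.31% of all genes tested), and lower were 3, Cpeb1, Eif4enif1 and Fmr1 (2.40%). Of these, Dazap1, Igf2bp2, Ythdc2, Tia1 and Fmr1 were named after their values were seen. Control replicate 1 was the highest library for 14 of the 25, and without it the median was -0.23.

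Cpeb1, which controls translation of stored RNAs in oocytes, was at 336, 15.9, 16.2 and 94.7 CPM in control and at 30.9, 14.3, 42.4 and 23.2 CPM in mito-supplemented replicates. Its log2 fold change was -2.06 (edgeR adjusted p = 0.642) and -0.58 without control replicate 1. Eif4enif1, the transporter of the cap-binding protein eIF4E, was at 279, 230.5, 232 and 162 CPM and at 198, 79.6, 98.9 and 47.8 CPM, a log2 fold change of -1.09 ± 0.44 (adjusted p = 0.633 by edgeR and 0.0140 by limma-voom) that was -0.95 without control replicate 1. Eif4enif1 was also highest in control replicate 1, at 1.20 times the next library. Ddx6, a helicase of cytoplasmic granules with the highest level of the list at 30.6 CPM per kb, was at 175 to 402 CPM over the 8 libraries, Pum2 (24.6 CPM per kb) at 127 to 219 CPM and Lsm14b (27.6 CPM per kb, 16.6 without control replicate 1) at 27.0 to 302 CPM.

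Tia1, a protein of stress granules, was at 21.5, 32.4, 40.4 and 33.8 CPM in control and at 48.5, 102, 80.0 and 108 CPM in mito-supplemented replicates. Its log2 fold change was 1.40 ± 0.37 (edgeR adjusted p = 0.544), and 1.27 without control replicate 1. Ddx25 was at 0.164, 0.951, 0.743 and 0 CPM and at 6.74, 1.94, 0.998 and 5.56 CPM, a log2 fold change of 2.97 (edgeR adjusted p = 0.626). These were 4, 12, 13 and 0 counts in control and 139, 28, 22 and 80 in mito-supplemented replicates. Ddx25 thus passed the filter on low counts mainly through the group where it was high, so its p value and lack of overlap are a description only. Fmr1 was at 107, 82.4, 90.6 and 92.6 CPM and at 66.8, 54.8, 55.4 and 50.7 CPM, a log2 fold change of -0.71 (edgeR adjusted p = 0.626). Tia1, Ddx25 and Fmr1 were the 3 of the 25 genes tested whose groups did not overlap in CPM, against 5.03% of all genes tested. Btg4 and Dnd1 completed the largest changes of the list at -2.08 and -1.95, and Btg4, at 1.12 without control replicate 1, had 1211 counts in control replicate 1, 219 in mito-supplemented replicate 3 and 4 to 25 elsewhere. With single libraries omitted, Dnd1 ran from -2.94 (mito-supplemented replicate 1 omitted) to -1.52 (mito-supplemented replicate 4 omitted). Zar1l had 0 counts in the 8 libraries. Exons of Tdrd5, Dnd1, Dazap1, Tia1, Fmr1, Sycp3, Uchl1 and Col3a1 overlap other annotated genes, so their counts may hold reads of those genes.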

How the data were processed

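Counts were analysed for 4 mito-supplemented and 4 control samples, grouped by their labels alone. Sample titles and count columns carry the same codes, but a colour key in the sources appears to have the groups the other way round, and exchanged names would turn the sign of every log2 fold change. The authors trimmed the reads with Trim Galore 0.4.4, mapped them to mm10 (GRCm38) with STAR 2.5.3a and summed them over exons with featureCounts, and the deposited values are these raw counts. The annotation release, strand setting and treatment of multi-mapped reads are not given in the sources used here. Of 5 control libraries made, the authors left out 1 before counting.

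Tests were run in R 4.3.3 with edgeR 4.0.16, using TMM normalization, the default expression filter, which kept 13873 of 26586 genes, and the quasi-likelihood test with legacy settings and Benjamini-Hochberg adjustment over all genes tested. Legacy settings, not the default of this version, were taken with earlier results known. Genes were called at adjusted p < 0.05 if they also differed at least 2-fold. Log2 CPM used a prior count of 2. Alternatives were the likelihood ratio test, DESeq2 1.42.0, limma 3.58.1 with voom quality weights, other scalings and filters, a replicate block, counts summed by label prefix and each library left out. Single values were compared by exact permutation tests, two-sided. The steps were tested on simulated counts. Total counts ranged from 10370045 to 19760763.

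Exon lengths and positions are from GENCODE M21, promoters from RefSeq. The genes and lists were chosen with earlier results of these data known. Besides the 10 genes, those named were, in each list, the 4 with the highest level per kilobase and the 4 with the largest log2 fold change, the 10 most alike across libraries, and the most abundant gene and zeros of each marker list. The lists were oocyte, pregranulosa, stroma, surface epithelium, endothelial, leukocyte, red cell and smooth muscle markers. Of the piRNA pathway list, Tdrd15, Gtsf2 and Dnmt3c were not listed under any symbol used here.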

Additional observations from a re-analysis of the deposited data

Results flagged for a closer look

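Among 62 sets of 4 replicate values, 7 held a value far from its 3 neighbours, and about 3.1 are expected by chance. The level of Ddx4 in control replicate 1 was 6.16 log2 CPM, against at most 3.60 in the other 3 control libraries. The level of Tdrd9 in mito-supplemented replicate 4 was -0.29 log2 CPM, against at least 4.38 in the other 3 of its group, and that of Mov10l1 in mito-supplemented replicate 3 was 5.73, against at most 5.01. Per 1000 counts of the oocyte markers, Mael was at 61.1 in mito-supplemented replicate 1 (next value 30.5), and Tdrkh at 44.8 in mito-supplemented replicate 4 (next value 8.68). The summed level of the germ cell RNA-binding genes in control replicate 1 was 11.43 on the log2 scale of CPM, against at most 10.60 in the other control libraries. That of the leukocyte markers in mito-supplemented replicate 1 was 9.52, against at most 4.04 in the other 3 of its group. The cause of these values was not tested.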

How the results depend on the processing

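The alternatives without legacy settings, without the rRNA genes and with the adjusted p value alone, and the leave-one-out values of the likeness across libraries, were chosen after seeing the data. DESeq2 gave no adjusted p value to Piwil2, Tdrkh, Gtsf1, Btg4 and others, so its counts leave them out. The quasi-likelihood count of 0 among the 10 genes and in both lists was the same in every alternative run except limma-voom with sample quality weights, where calls were made for 1 of the 10 genes, 0 piRNA pathway genes and 5 germ cell RNA-binding genes, when it called 18.6% of all genes tested.

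The median log2 fold change of the 9 genes tested was -1.50. It was 0.64 with limma-voom with sample quality weights and 0.71 with scaling to the oocyte markers, where the median of all genes tested was 0.037 and 0.69. Leaving out single libraries gave -1.85 (control replicate 2 omitted) to 0.22 (control replicate 1 omitted). The median of all genes was 0.17 when libraries were scaled by size only. Replicate numbers were not taken as a pairing. Same-numbered deviations correlated at -0.24, -0.19, -0.33 and 0.22, and only for replicate 4 was this the highest correlation with the other group. These few values cannot show whether a pairing exists. The replicate block gave 0 calls and a median of -0.63 for the 9 genes.

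By limma-voom with sample quality weights, signs changed for Ddx4 (0.33), Dazl (0.78), Mael (1.58), Piwil2 (0.46), Tdrd1 (0.25), Tdrd9 (0.46), Mov10l1 (0.67), Asz1 (0.64), Tdrkh (2.48), Tdrd3 (0.055), Tdrd5 (0.34), Tdrd12 (1.86), Stk31 (0.32), Prmt5 (0.076), Gtsf1 (1.07), Tex15 (0.52), Morc1 (0.14), Cpeb1 (0.41), Lsm14b (0.57), Btg4 (1.18) and Igf2bp2 (1.502). Scaling to the oocyte markers moved most genes upward together, so signs there say little of single genes, and the values were above 0 for Ddx4 (0.71), Dazl (0.17), Mael (0.88), Piwil2 (0.83), Mov10l1 (0.54), Asz1 (0.76), Tdrkh (3.12), Tdrd3 (0.44), Tdrd12 (0.35), Prmt5 (0.80), Gtsf1 (0.66), Tex15 (0.027), Pum2 (0.42), Dazap1 (0.55), Cpeb1 (0.14), Lsm14b (0.50), Ddx6 (0.30), Igf2bp2 (1.55) and Fmr1 (0.018). The sign changed with the replicate block for Tdrkh (2.36) and Igf2bp2 (0.32), with library size only for Pum2 (0.11) and Igf2bp2 (0.0027), and with counts summed by label prefix for Dazap1 (0.060).

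When single libraries were omitted, the log2 fold change ran from -1.03 to 0.56 for Ddx4, -2.34 to 0.22 for Dazl, -1.72 to 0.80 for Mael, -1.85 to 0.48 for Piwil2, -1.68 to 0.17 for Asz1, -0.55 to 3.38 for Tdrkh, -2.71 to 0.42 for Tdrd12, -2.03 to 0.99 for Gtsf1, -3.77 to 1.12 for Btg4 and -0.54 to 0.38 for Igf2bp2, the upper end always without control replicate 1.

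The number of genes correlated with Ddx4 was 5 of 9, with no share over all genes tested to set beside it. This number was 0 without the 2 libraries farthest from the median of Ddx4, and lay between 0 (control replicate 1 omitted) and 6 (control replicate 4 omitted). The ratio of Tdrd1 to Ddx4, averaged over the ratios within 8 libraries, was 3.48 per kilobase and 6.28 without length. What caused them was not tested. Counts of 1 to 12 in single libraries, as for Tdrkh and Pld6, limit what those genes can show, and control replicate 4 had the fewest counts outside rRNA.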
